A study of Mus musculus with 6 samples.

Results

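The 39 Hox genes of the mouse lie in 4 clusters, Hoxa to Hoxd, and encode homeodomain transcription factors that record position along the body and limb axes. They were described here in the soleus, a slow calf muscle of the hindlimb. Members were all genes whose array feature carried exactly 1 gene symbol of the form Hox, cluster letter and number, with 1 feature for each gene. This gave 33 Hox genes among 30142 genes with such a feature, and 6 Hox genes had none and are not analysed here. Each of the 33 had a single feature, and the stretch of transcript that a feature covers is not given in the sources used here.

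RNA came from the soleus muscles of both legs of male mice aged 39 to 41 weeks, on Affymetrix whole-transcript arrays with 1 array for each mouse. The 3 Control mice were wild type littermates. The 3 cKO mice carried a DMP1 Cre Mbtps1 knockout, in which a Cre recombinase under regulatory sequence of Dmp1, a gene of osteocytes, removes Mbtps1 from cells that express the Cre, so the muscle fibres themselves need not be deleted. Mouse numbers were low for Control 1, Control 2 and cKO 1 (715, 716 and 733) and high for Control 3, cKO 2 and cKO 3 (776, 779 and 780), and the labels did not say what the numbers mark. Mbtps1, the targeted gene, had log2 signals of 7.39, 7.05 and 7.24 (Control 1 to 3) and 7.77, 7.44 and 7.11 (cKO 1 to 3), so the groups overlapped. In whole muscle this does not check the labels. Dmp1 itself lay below the detection line described further on in all 6 arrays, at 3.76 to 4.31. Of 12 muscle fibre markers, 12 were above that line on all 6 arrays, beside 47.2% of all genes.

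Within a cluster, Hox genes are numbered by their order on the chromosome, and genes with the same number in different clusters are paralogues. Genes with low numbers are used towards the head of the embryo, those with high numbers towards the tail and the ends of the limbs. In adult limb tissue part of this code persists, mostly in connective tissue cells and in muscle stem cells, and Hoxc10 together with the T-box gene Tbx4 and the homeobox gene Pitx1 is known for hindlimb as against forelimb expression. The clusters also hold microRNAs and long non-coding RNAs, among them miR-196, which is known to cut the Hoxb8 messenger RNA, and Hotair, which is read from the Hoxc cluster.

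Sequences are shown first for miR-196a and miR-10b, whose genes lie in the Hox clusters and differed in detection, and for 3 promoters that differ in detection. The mature microRNAs are from RefSeq (GRCm38.p6), 5′ to 3′, with the seed, bases 2 to 8, in capitals. The first is encoded by Mir196a-2 (chr15:102973365-102973386, plus strand) and also by Mir196a-1, the other by Mir10b (chr2:74726074-74726096, plus strand). Their seeds differ.
mmu-miR-196a-5p: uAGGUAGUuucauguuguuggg
mmu-miR-10b-5p: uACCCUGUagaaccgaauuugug

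The promoters, also from RefSeq (GRCm38.p6), are windows of equal length that hold the gene start and lie mostly upstream of it, with each CpG in capitals. Those of Hoxa5 (chr6:52204538-52204837, minus strand) and Hoxd8 (chr2:74704365-74704664, plus strand) belong to genes above the detection line on every array. That of Hoxd9 (chr2:74697513-74697812, plus strand) belongs to the next gene of the Hoxd cluster, which was above the line on none.
Hoxa5: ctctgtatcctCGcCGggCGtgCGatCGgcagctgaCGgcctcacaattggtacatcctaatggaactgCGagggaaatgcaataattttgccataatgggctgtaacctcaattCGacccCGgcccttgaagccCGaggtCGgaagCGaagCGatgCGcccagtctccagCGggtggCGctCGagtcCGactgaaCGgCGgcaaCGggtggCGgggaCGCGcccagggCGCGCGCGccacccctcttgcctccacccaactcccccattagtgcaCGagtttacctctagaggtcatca
Hoxd8: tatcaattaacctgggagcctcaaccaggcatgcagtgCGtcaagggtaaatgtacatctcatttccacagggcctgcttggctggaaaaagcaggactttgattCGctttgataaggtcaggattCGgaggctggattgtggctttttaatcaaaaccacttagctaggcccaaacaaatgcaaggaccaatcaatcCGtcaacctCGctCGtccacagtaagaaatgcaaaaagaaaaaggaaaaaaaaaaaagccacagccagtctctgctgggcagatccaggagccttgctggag
Hoxd9: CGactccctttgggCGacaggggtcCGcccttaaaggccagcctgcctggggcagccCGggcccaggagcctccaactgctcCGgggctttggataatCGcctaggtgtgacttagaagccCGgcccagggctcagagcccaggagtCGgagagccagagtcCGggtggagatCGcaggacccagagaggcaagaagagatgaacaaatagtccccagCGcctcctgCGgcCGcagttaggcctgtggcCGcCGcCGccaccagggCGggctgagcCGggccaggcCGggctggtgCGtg
They hold 29, 6 and 20 CpG, so the gene with the fewest was detected and the one with 20 was not. Promoters matched 17 of the 33 members, 19 promoters in all. Their median CpG count was 20, against 7 over all 32851 promoters of the same length. It was 21 for the 7 promoters of detected genes, 11.5 for the 4 promoters of mixed genes and 21 for the 8 promoters of genes not detected. Hoxc4 was the only Hoxc member matched. Promoters of detected genes were mostly of Hoxa, and those of genes not detected were of Hoxd members and Hoxa11. Call and cluster thus cannot be told apart in these counts. The motif TATAAA, searched on both strands, was in 3 of the 19 Hox promoters (15.8%) and in 13.6% of all promoters. These counts describe letters in the windows and nothing about a factor.

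Detection was read against genes that soleus is not known to use. The line was set on each array at the 95th percentile of 1526 receptor genes of smell, and lay at 4.47, 4.33 and 4.40 log2 units in Control 1 to 3 and at 4.82, 4.31 and 4.22 in cKO 1 to 3. The line of cKO 1 was the highest of the 6 arrays. A gene above the line on all 6 arrays was called detected, one above it on none was called not detected, and the others were called mixed. By this rule 47.2% of all 30142 genes and 2.1% of the receptor genes were detected. Signals of different features depend on their probes as well as on the RNA, so levels are not ranked between genes. In whole muscle, fewer cells of a type and less RNA per cell cannot be told apart.

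Of the 33 Hox genes, 10 were detected (30.3%, beside 47.2% of all genes), 10 were mixed and 13 were not detected. The Hoxc cluster had 5 of 9 members detected, the Hoxa cluster 4 of 8, the Hoxd cluster 1 of 7 and the Hoxb cluster 0 of 9. The shares of Hoxc and Hoxa were a little above that of all genes, and those of Hoxd and Hoxb were below it. By position, 1 of 8 members of paralogue groups 1 to 4 was detected, 4 of 10 of groups 5 to 8, and 5 of 15 of groups 9 to 13. The posterior genes were not mixed: the other 10 of groups 9 to 13 were below the line on every array. At the stricter 99th percentile of the receptor genes, which 38.1% of all genes passed, 7 Hox genes stayed above on all 6 arrays (21.2%). They were Hoxa5, Hoxa10, Hoxc4, Hoxc6, Hoxc9, Hoxc10 and Hoxc11, and Hoxa6, Hoxa13 and Hoxd8 dropped out.

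**Figure D1:**
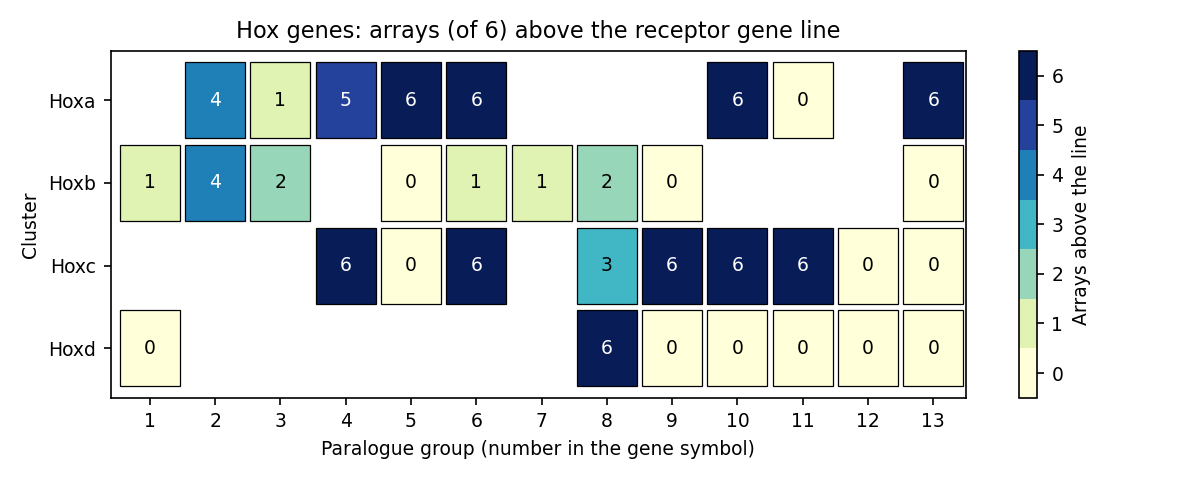
Number of arrays, of 6, on which each Hox gene lay above its array's receptor gene line, by cluster (rows) and paralogue group (columns), with colour and digit both giving the number. Empty places hold no member. Dark squares fill Hoxc9 to Hoxc11 and parts of Hoxa, the Hoxb row has none at 6, and the Hoxd row has 6 at Hoxd8 only.

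Hoxc10, a posterior gene known for hindlimb expression, had log2 signals of 10.42, 11.15 and 11.24 (Control 1 to 3) and 10.82, 11.15 and 10.79 (cKO 1 to 3). Its smallest distance above the line of an array was 5.95 log2 units. The Control 1 value was the lowest, and the cKO values lay within the span of the Control values. Hoxc9, its neighbour in the cluster and a gene of the thoracic to lumbar level, was at 7.19, 7.06 and 7.77 in Control and 7.67, 7.42 and 7.37 in cKO. Control 3 was the highest array for Hoxc9, and the groups overlapped. Hoxc11, on the other side of Hoxc10 and linked to hindlimb patterning, was at 5.89, 5.92 and 6.04 in Control and 6.14, 5.74 and 6.06 in cKO, at least 1.33 above the line. The remaining posterior genes of this cluster, Hoxc12 and Hoxc13, stayed between 3.52 and 4.12 and below the line on all arrays. Hoxc11 was thus the highest-numbered Hoxc gene detected, and a weak feature cannot be told here from absent RNA.

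The more anterior Hoxc genes were detected unevenly. Hoxc6, a marker of trunk level, was at 6.41, 6.42 and 6.51 in Control and 6.82, 6.37 and 6.41 in cKO. Hoxc4 was at 5.71, 5.55 and 6.14 in Control and 6.03, 5.75 and 5.65 in cKO, with Control 3 and cKO 1 highest. Hoxc5, which lies between them, was not detected, at 3.45 to 3.99. Hoxc8 was mixed, with 4.24, 4.28 and 4.81 in Control and 4.80, 4.55 and 4.85 in cKO, and it was above the line in Control 3, cKO 2 and cKO 3.

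In the Hoxa cluster, Hoxa5, a gene of the cervical to upper thoracic level, had the steadiest signal, with 6.23, 6.18 and 6.31 in Control and 6.18, 6.21 and 6.15 in cKO. Its range over the 6 arrays was 0.16 log2 units, the smallest of the 33 Hox genes. Hoxa6, the next gene, was at 5.51, 5.33 and 6.02 in Control and 5.25, 5.87 and 5.65 in cKO. The 3 arrays of low-numbered mice were the lowest for Hoxa6. Hoxa10, a paralogue of Hoxc10, was at 5.78, 5.84 and 6.06 in Control and 6.06, 5.84 and 5.88 in cKO, and its neighbour Hoxa11, a gene of the middle limb segment, was below the line on all arrays, at 3.51 to 4.06. Hoxa13, a gene of the limb end, was at 4.68, 4.92 and 4.78 in Control and 4.98, 4.59 and 4.54 in cKO. Its margin over the line was 0.17 log2 units in cKO 1, and it was the detected gene nearest the line. Just outside was Hoxa4, above the line on 5 arrays with a margin of -0.22 in cKO 1, and at 4.32 to 4.71. Hoxa2, a hindbrain-level gene, was above the line on 4 arrays and Hoxa3 on 1.

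The Hoxd cluster gave 1 detected gene, Hoxd8, at 5.11, 5.35 and 4.90 in Control and 5.16, 4.69 and 4.64 in cKO. Its lowest values were in cKO 2 and cKO 3, while cKO 1 lay within the Control span. Hoxd9 to Hoxd13, known for patterning the limb bud from its upper part to the digits, were below the line on all arrays, and so was Hoxd1. Hoxd9 came nearest, at 4.01 to 4.61, with margins of -0.22 to -0.20. For Hoxd10 to Hoxd13 the signals ran from 3.06 to 4.08.

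No Hoxb gene was above the line on all arrays. Hoxb2 was above it on 4 arrays, Hoxb3 and Hoxb8 on 2 each, and Hoxb1, Hoxb6 and Hoxb7 on 1 each. Hoxb5, Hoxb9 and Hoxb13 were above it on none. Hoxb8, the known target of miR-196, was at 4.43, 4.46 and 4.27 in Control and 4.66, 4.32 and 4.19 in cKO. Hoxb1 passed the line by 0.01 log2 units in cKO 1, at 4.82, and was at 3.81 to 4.01 on the other arrays. At the 90th percentile of the receptor genes Hoxb2, Hoxb3 and Hoxb8 were above on all 6 arrays, as was Hoxd9, so the count of 0 in this cluster depends on the line.

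**Figure D2:**
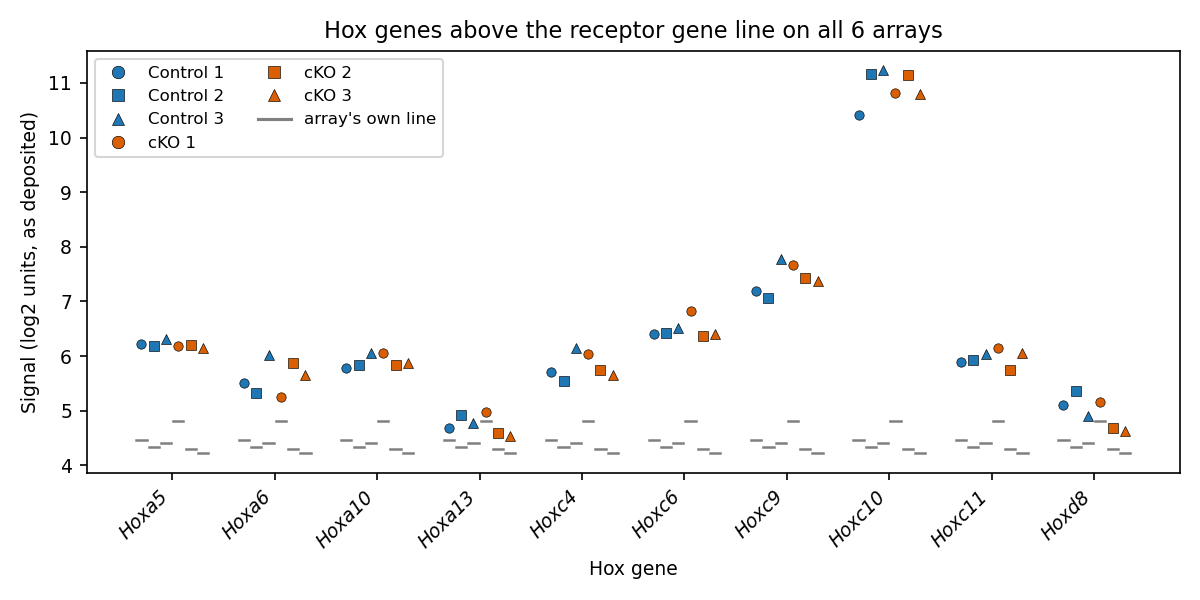
Log2 signal of the 10 detected Hox genes on each array, with Control in blue, cKO in orange, a marker for each replicate number and a grey bar at the array's own receptor gene line. The blue and orange points overlap for every gene, and Hoxa13 and Hoxd8 lie closest to the bars.

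The comparison of cKO with Control asked whether Hox levels differ in muscle when Mbtps1 is removed with the DMP1 Cre. No Hox gene differed beyond the spread between mice. Of the 33 members, 20 passed the filter on low values (a signal over the array's median value on 3 or more arrays) and were tested with limma among 33334 features. By limma 0 of the 20 passed an adjusted p of 0.05 (0.0% of all features) and 0 had an unadjusted p under 0.05 (4.5% of all features, 1501 in number). For 0 of the 20 did the 3 cKO values lie wholly above or below the 3 Control values, against 11.0% of all features. The adjusted p was 0.999 for each of the 20.

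Differences (cKO minus Control) among the tested Hox genes ran from -0.29 to 0.29 log2 units, with a median of 0.02 beside 0.07 over all features. On the deposited scale 14 were higher in cKO and 6 lower, where 65.8% of all features were higher. That split turned to 5 higher and 15 lower after quantile normalization to 6 and 14 after centring on array medians or with array weights, and to 6 and 14 without cKO 1, so it gives no direction for the genes as a group. In the low mouse numbers and in the high ones the difference had the same sign for 6 of the 20. The only cKO array of the low range was cKO 1, and the only Control array of the high range was Control 3. The receptor gene line was 4.82 on cKO 1 against 4.47 and 4.33 on Control 1 and 2. Differences within a range, here and below, were not centred on array medians. They thus cannot tell mouse number from the level of a single array.

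For Hoxc10 Control averaged 10.94 ± 0.45 (SD, n = 3) and cKO averaged 10.92 ± 0.20 (SD, n = 3). The difference was -0.02 log2 units with a 95% confidence interval from -0.67 to 0.64, an interval that runs well to both sides of 0. Hoxa5 was bounded most closely of the detected genes, with 6.24 ± 0.07 (SD, n = 3) against 6.18 ± 0.03 (SD, n = 3) and an interval from -0.35 to 0.24. After quantile normalization its difference was -0.17 and its groups did not overlap. Among the other detected genes, the intervals ran from -0.32 to 0.48 for Hoxc6, from -0.34 to 0.40 for Hoxc11, from -0.46 to 0.48 for Hoxc4 and from -0.31 to 0.38 for Hoxa10. For Hoxa6 the interval was -0.60 to 0.55 and for Hoxa13 it was -0.47 to 0.29, so none of these left out 0. Hoxc9 differed by 0.15 (interval -0.40 to 0.69), but by 0.54 within the low mouse numbers and by -0.37 within the high ones.

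The ends of the range were Hoxd8 and Hoxc8, paralogues in different clusters. Hoxd8 averaged 5.12 ± 0.23 (SD, n = 3) for Control against 4.83 ± 0.29 (SD, n = 3) for cKO, differing by -0.29 (SE 0.19, limma adjusted p = 0.999). It was -0.08 among low-numbered mice and -0.24 among high-numbered mice. With array weights the difference was -0.43 (limma adjusted p = 0.296), and without cKO 1 it was -0.46 (limma adjusted p = 0.795) and the groups did not overlap. The weights were 0.25 for cKO 1, 4.01 for cKO 2 and 1.54 for cKO 3, so weighted cKO values rest mostly on cKO 2. Hoxc8 averaged 4.44 ± 0.32 (SD, n = 3) for Control against 4.73 ± 0.16 (SD, n = 3) for cKO, differing by 0.29 (SE 0.19, limma adjusted p = 0.999). Without Control 3 it was 0.47 (limma adjusted p = 0.428). It was 0.54 among low-numbered mice and -0.11 among high-numbered mice, so its sign was not shared by the ranges.

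**Figure D3:**
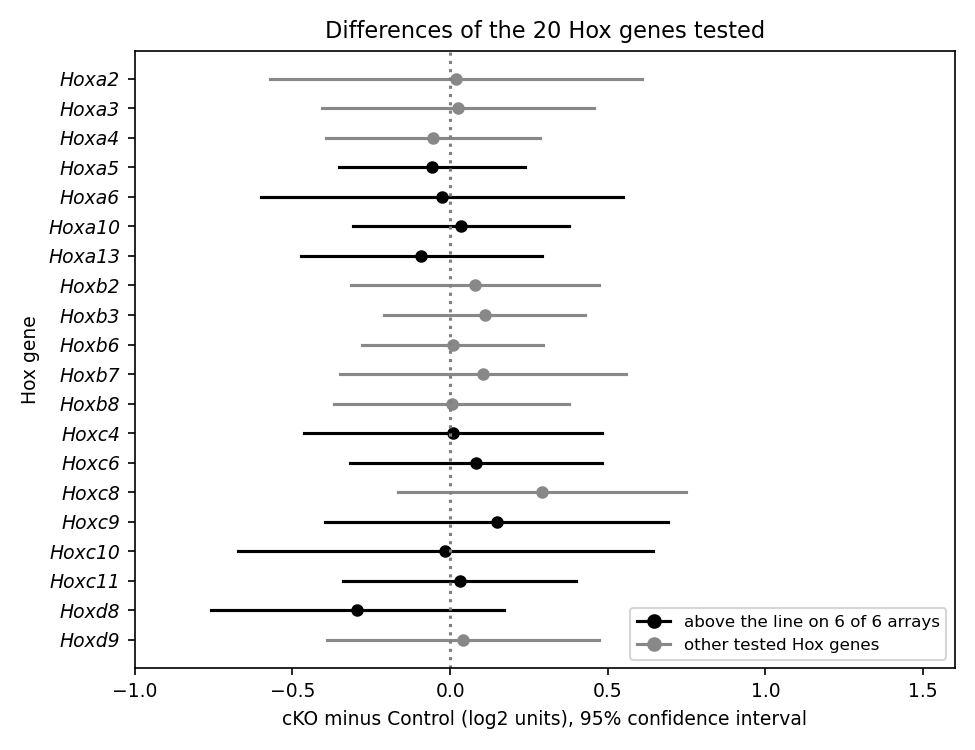
Difference between cKO and Control in log2 units for the 20 tested Hox genes, as points with 95% confidence intervals from limma; black marks the 10 detected genes and grey the others. All 20 intervals include 0, from Hoxd8 at -0.29 to Hoxc8 at 0.29.

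The mean level of tendon cell markers separated the groups of arrays, while 6 of the 10 tested markers did so singly, beside 11.0% of all features. The list was chosen with earlier results of these data known, so these shares do not test it. The mean log2 signal over 10 tested tendon markers was 5.79, 5.82 and 6.53 (Control 1 to 3) and 7.06, 7.15 and 7.30 (cKO 1 to 3), with 9 of 10 higher in cKO and 0 past an adjusted p of 0.05 by limma (6 at an unadjusted p under 0.05, beside 4.5% of all features). Control 3, of a high mouse number, had the highest mean of the Control arrays, and cKO 2 and cKO 3 were also of high number. The part of the mouse number range in this separation was not tested. Mkx and Cilp2 of the 12 listed tendon markers were not detected on any array. For connective tissue fibroblasts the mean over 10 markers was 8.22, 8.43 and 8.84 in Control and 8.66, 8.25 and 8.95 in cKO, which overlap. Of 12 satellite cell markers 9 were detected, beside 47.2% of all genes. Their list means were 6.07 to 6.21 for Control and 6.17 to 6.34 for cKO. Macrophage markers were higher in cKO for 10 of 10 (median difference 0.32), also after centring on array medians, and smooth muscle markers for 7 of 9 (median 0.33). Of all features 65.8% were higher in cKO. Endothelial markers were lower for 7 of 9 (median -0.17). The list means overlapped in all 3 lists. They were 6.02 to 6.61 in Control and 6.35 to 7.23 in cKO for macrophages, and 8.90 to 9.25 and 9.16 to 9.46 for smooth muscle. For endothelium they were 8.95 to 10.02 and 9.16 to 9.31. In these 3 lists 0 passed an adjusted p of 0.05 by limma. The numbers at an unadjusted p under 0.05 were 0, 1 and 1, beside 4.5% of all features. The part of any of these cells in the Hox signals was not tested.

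Regulators of limb type gave a divided picture. Tbx4, the T-box gene of the hindlimb, was detected, at 5.14, 5.37 and 5.35 in Control and 5.24, 5.27 and 5.24 in cKO. Its difference was -0.04 (interval -0.33 to 0.26). Tbx5, its forelimb counterpart, was below the line on all arrays, at 3.38 to 3.78. Pitx1, which acts upstream of Tbx4 in the hindlimb bud, was also below it, at 3.15 to 3.53, and so was Isl1, an early hindlimb gene, at 3.75 to 4.11. Over the 19 limb patterning genes listed, 8 were detected, 6 mixed and 5 not detected, where 47.2% of all genes were detected.

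Tbx15, a T-box gene of limb muscle and its fibre types, was at 13.04, 13.96 and 13.16 in Control and 13.92, 13.92 and 14.02 in cKO. The Control 2 value lay among those of cKO. Its difference of 0.57 log2 units (SE 0.28, limma adjusted p = 0.999) was the strongest by p of the 15 tested limb genes, followed by Tbx18, a T-box gene, at 0.18 (SE 0.12). Tbx18, En1 and Gli3 were the 3 of 15 without overlap of the groups, beside 11.0% of all features. Tbx18 and Gli3 were higher in cKO and En1 was lower, and En1 and Gli3 were mixed in detection. By limma 0 of the 15 passed an adjusted p of 0.05 or an unadjusted p under 0.05, and their median difference was -0.03.

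HOX proteins bind DNA with TALE homeodomain partners, of which 9 were measured and 6 detected, beside 47.2% of all genes. Meis1 was at 5.78, 5.55 and 6.28 in Control and 6.21, 5.72 and 5.94 in cKO, while Meis2 was under the line on every array at 4.12 to 4.33. Pbx2, Pbx3, Pknox1, Pknox2 and Tgif1 were the other detected partners. Among the 7 tested, 0 had an unadjusted p under 0.05 by limma and all 7 were higher in cKO on the deposited scale, but 3 of 7 after centring on array medians. The smallest p were those of Pknox2, at 0.23 (SE 0.19), and Tgif1, at 0.09 (SE 0.13).

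Polycomb and trithorax proteins keep Hox genes silent or active, and 22 of 23 measured were detected, beside 47.2% of all genes. Ezh1, the Polycomb methyltransferase of non-dividing cells, was at 9.89, 10.09 and 10.15 in Control and 10.83, 10.64 and 10.89 in cKO, with every cKO array above every Control array. Its difference was 0.74 log2 units (SE 0.18, limma adjusted p = 0.999). By limma it was the 1 gene of the 23 with an unadjusted p under 0.05, beside 4.5% of all features. Its value was 0.83 among low-numbered mice and 0.62 among high-numbered mice. Kdm6b, a demethylase that opposes Polycomb, was next at 0.33 (SE 0.18). Over all 23 the median difference was 0.08, with 17 higher and 6 lower on the deposited scale and 13 higher after centring on array medians. The groups did not overlap for 3 of the 23, Ezh1 among them, beside 11.0% of all features.

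Of the non-coding RNAs of the clusters, 6 had a feature of their own. Hotair, which lies between Hoxc11 and Hoxc12, was detected, at 5.05, 5.21 and 5.74 in Control and 6.57, 5.48 and 5.69 in cKO. The cKO 1 array stood above the other 5, and its line was also the highest, at 4.82 against 4.22 to 4.47. The difference was 0.58 log2 units (SE 0.32, limma adjusted p = 0.999), and it was 1.44 among low-numbered mice and -0.16 among high-numbered mice. Mir196a-2, which lies between Hoxc10 and Hoxc9 and encodes the miR-196a printed above, was detected at 6.58, 6.87 and 6.43 in Control and 7.11, 6.40 and 6.17 in cKO, a difference of -0.06 (SE 0.27). Mir196a-1 beside Hoxb9, which encodes the same mature miR-196a, was below the line at 3.15 to 3.96. Mir10b of the Hoxd cluster was below it too, at 2.90 to 3.24, and Mir615 was at 3.30 to 3.69. Hoxb3os, an antisense RNA, was above it on 2 arrays. The features are named by the microRNA gene, and which arm or precursor they read is not given in the sources used here.

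**Figure D4:**
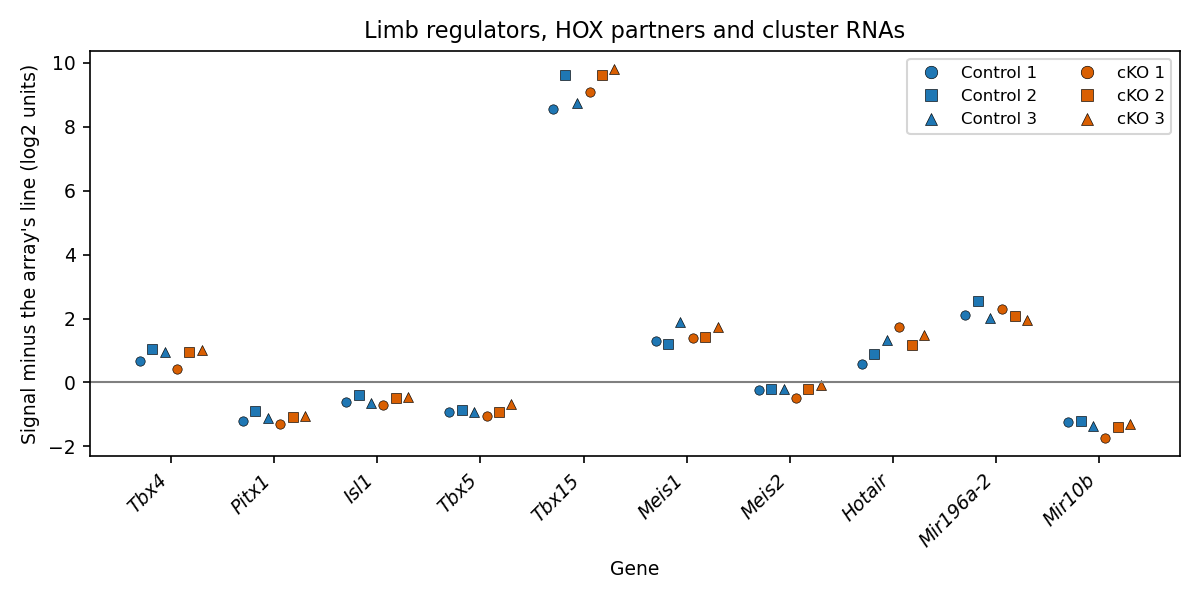
Log2 signal minus the array's own receptor gene line for 10 genes of limb type, HOX partners and cluster RNAs, with Control in blue, cKO in orange and a marker for each replicate number; 0 is the line. Tbx4, Tbx15, Meis1, Hotair and Mir196a-2 lie above 0 on all 6 arrays, and Pitx1, Isl1, Tbx5, Meis2 and Mir10b below it on all 6.

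Other homeobox genes were set beside the Hox genes, where 47.2% of all genes were detected by the same rule. Of the 8 Evx and ParaHox genes, relatives of the clusters, 0 were detected and 6 were below the line on every array, while Gsx2 was above it on 5 arrays and Cdx2 on 1. Their differences were 0.05 (SE 0.12) and 0.04 (SE 0.15). Of 14 homeobox genes of forebrain and eye, 2 were detected, Emx2 (4.94 to 5.26) and Vax2 (4.90 to 5.06), with differences of -0.10 (SE 0.13) and -0.06 (SE 0.11). Homeobox and paired-box genes of the limb muscle lineage had 6 of 11 detected, among them Lbx1, which marks migrating limb muscle precursors, at 6.54 or more on each array, and the stem cell gene Pax7, at 4.77 to 4.95. Barx2, a homeobox gene of muscle growth and repair, was at 7.92, 8.26 and 8.10 in Control and 7.03, 7.50 and 7.29 in cKO, with every cKO array below every Control array. Its difference was -0.83 (SE 0.19, limma adjusted p = 0.999), ahead by p of Lbx1 at 0.16 (SE 0.17). By limma Barx2 was the 1 of 8 tested with an unadjusted p under 0.05, beside 4.5% of all features. It was also the 1 of 8 without overlap of the groups, beside 11.0% of all features. The muscle lineage list too was chosen with earlier results of these data known.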

How the data were processed

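The deposited value table gave 1 column of values for each of 6 arrays, read here as log2 signals from their range of 1.92 to 19.93. The sources used here do not give the authors' background correction, normalization, software or genome build. Each array was a separate mouse by its label, and having 3 arrays a group limits the precision. Of 72688 features, 65956 had values. GEO's platform annotation named 30604 with 1 distinct symbol, 2146 with several (not used for names) and left 33206 unnamed. By Entrez identifier 22818 matched RefSeq (GRCm38.p6), which updated 827 symbols. The feature with the highest mean stood for a gene.

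Features above their array's median on at least 3 arrays were tested with limma 3.58.1 in R 4.3.3 (lmFit, eBayes with trend, no block, two-sided), adjusted by Benjamini-Hochberg over 33334 features. Alternatives were quantile normalization, median centring, other filters and detection lines, no trend, array weights, blocks by replicate number or mouse number range, and each array left out. The fit was tested on simulated data. Tables and plots used Python 3.11.15, pandas 2.3.3 and matplotlib 3.10.9. Named were all Hox genes that were detected, at an unadjusted p under 0.05 or without overlap, 9 listed context genes and 2 genes by p of each list of context genes (marker lists of other cell types were given by their counts and means). Hoxc8, other mixed or undetected Hox genes and further context genes were named after their values were seen. The members and lists were chosen with earlier results of these data known.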

Additional observations from a re-analysis of the deposited data

How the results depend on the processing

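With 3 arrays in each group, differences of the size seen here could not be separated from the spread between mice. The count of detected Hox genes was 10. It was 16 at the 90th percentile of the receptor genes and 18 at the median of all features, 7 at the 99th percentile and at the 75th percentile of all features, and 14 where 3 of 6 arrays were enough, and it lay between 10 and 11 with each array left out. Features past an adjusted p of 0.05 in limma numbered 0 under every alternative that kept all 6 arrays and between 0 and 14 with each array left out (14 without Control 3, of which 0 were Hox genes). Hox genes with an unadjusted p under 0.05 numbered 0, but 1 of 20 with array weights (Hoxd8, beside 12.8% of all features), and between 0 and 1 with each array left out (Hoxc8 without Control 3, beside 9.43%, and Hoxd8 without cKO 1, beside 6.22%). Hox genes without overlap of the groups numbered 0, but 1 after quantile normalization (Hoxa5, beside 9.97% of all features) and 1 after median centring (Hoxd8, beside 9.17%), and between 0 and 4 with each array left out. The 4 of 20 came without cKO 1, beside 25.5% of all features, and were Hoxa13, Hoxc6, Hoxd8 and Hoxd9. Without Control 1 there were 2 (Hoxb2 and Hoxc10, beside 17.8%), without Control 3 there were 2 (Hoxc8 and Hoxc9, beside 26.6%), without Control 2 there was 1 (Hoxa5, beside 20.1%) and without cKO 2 there was 1 (Hoxc11, beside 18.2%). The median Hox difference of 0.02 was -0.06 after quantile normalization, -0.04 after median centring, -0.04 with array weights and 0.06 with the mouse number range as a block, and between -0.06 and 0.07 with each array left out. With the replicate block 0 Hox genes had an unadjusted p under 0.05, and the median of 0.02 could not change. Same-numbered arrays deviated together for numbers 1 and 3 (r = 0.13 and 0.21 across features) but not for 2 (r = -0.20), so the numbers were not taken to pair mice. Across numbers, r was 0.33 for Control 2 with cKO 1 and 0.39 for Control 3 with cKO 2, which share a mouse number range, and -0.41 for Control 3 with cKO 1, which do not. Of 288 differences of single Hox genes under the alternatives, 286 stayed within 1 SD (within groups) of the reported value. The other 2 were Hoxa5 after quantile normalization (-0.17) and median centring (-0.12). Other filters, no trend, the replicate block and averaging a gene's features could not change a difference, so the 286 overstates stability. Staying within 1 SD also allowed a change of sign, as for Hoxa2 (0.02 as reported, -0.30 with array weights). Results with array weights rest mostly on cKO 2 within cKO, as its weight was the largest.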
